A study of Mus musculus with 107 samples.

Results

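Treatment-naïve tumors of Renca and RAG, the 2 renal cell carcinoma models of the series, were compared across all genes. They are 6 of the 107 tumors in the table, 3 of each model, and were taken by their labels without use of any measured value. The series holds RNA sequencing of subcutaneous tumors of 12 mouse syngeneic models, collected before treatment or on day 8 with no treatment (NT) or after lenvatinib (LEN), an oral inhibitor of VEGF, FGF and related receptor kinases. The comparison asks how far models of one tumor type differ at baseline in the features the study followed, which are vessels and T cell inflammation. Both lines were purchased from ATCC and grown under the skin of the right flank of female BALB/cAnNCrlCrlj mice, which were 7 weeks old at implantation. The tumors of both groups were collected at about 100 mm3 and had received nothing. By the study's methods, RAG cells were adapted to growth in mice before use, and no such step is given for Renca. Each model is 1 cell line, so the 3 tumors of a group are samples of the same line. The labels do not say whether they came from separate cultures, and p-values therefore measure the spread between these tumors.

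Renal cell carcinoma arises from the epithelium of the kidney tubule. In its clear cell form, loss of the ubiquitin ligase subunit VHL stabilizes the hypoxia-inducible factors HIF-1α and HIF-2α, and their targets, among them VEGF-A, make the tumor rich in vessels. Drugs against VEGF receptors and antibodies against immune checkpoints are both used against it. Under interferon-γ from T and NK cells, tumor and myeloid cells express the chemokines CXCL9, CXCL10 and CXCL11, which attract more T cells through CXCR3, and raise antigen presentation and the checkpoint ligand PD-L1.

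Expression is given as TPM, the share of a transcript among all transcripts of the tumor, a measure corrected for gene length that adds up to one fixed total for each tumor. Differences were tested by limma on log2(TPM + 1) over 16667 genes with a mean of at least 1 TPM, are written as Renca minus RAG with their standard error, and were called at a Benjamini-Hochberg adjusted p under 0.05. Such differences understate the change of genes near 1 TPM. TPM keeps no read counts, so the depth of each tumor is unknown.

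The tumors fell into their models. Over 13282 protein-coding genes, the most similar of all 107 tumors was another treatment-naïve tumor of the same model for 6 of 6 tumors, with r of at least 0.9859 within a model and 0.8861 to 0.8943 between Renca and RAG. Of the 16667 genes, 5797 (34.8%) were called higher in Renca and 2062 (12.4%) higher in RAG, together 47.2%. Protein-coding genes took 47.4% to 51.4% of the total in Renca and 40.6%, 49.4% and 40.0% in the 3 RAG tumors, and the genes of the mitochondrial chromosome took 7.01% to 7.62% in Renca and 4.07% to 6.89% in RAG. The non-coding RNA Rn7s1 alone took 12.1% to 16.2% of the total. The median difference over all genes tested was 0.26. After each tumor was rescaled over its protein-coding genes, it was 0.07, and 4533 genes (27.2%) were higher in Renca and 3408 (20.5%) in RAG. Rescaling by the upper quartile gave 4317 (25.9%) and 3641 (21.9%), with a median of 0.04. The balance of calls therefore depended on the scaling, whereas 6594 of the 7859 calls were made in the same direction as deposited and after protein-coding rescaling, 4533 of them higher in Renca and 2061 higher in RAG. Among the genes named here, Csf1r, Pdgfrb, Pax5 and Xist were called higher in Renca only as deposited, and Vegfa, Myc, Mx1, S100a8, Gclm, Csf1, Cox4i1, Aprt and Ckm were called higher in RAG only after protein-coding rescaling. The calls of Cd4, Cd22, Pax5, Ncr1, Pdgfrb, Pgf, Ly6c1, Gclc, Cdkn1a, Csf1r, Ndrg1, Adipoq and Xist were near the threshold and were each lost when a single tumor was left out, at adjusted p of 0.0503 to 0.124 by limma. A difference of more than 1 on the log2 scale was called for 2045 genes higher in Renca and 861 higher in RAG, or 1502 and 1126 after protein-coding rescaling.

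The same comparison was available in other mice, as 3 Renca and 3 RAG tumors of day 8 without treatment. There 4026 of 16053 genes (25.1%) were called higher in Renca and 3283 (20.5%) higher in RAG, together 45.5%. Of the 7859 genes called in the treatment-naïve tumors, 7604 were tested again, 7138 had the same sign and 5206 were called in the same direction, which is 66.2% of the first set of calls and 71.2% of the 7309 calls of day 8. Another 37 genes were called in the opposite direction.

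**Figure D1:**
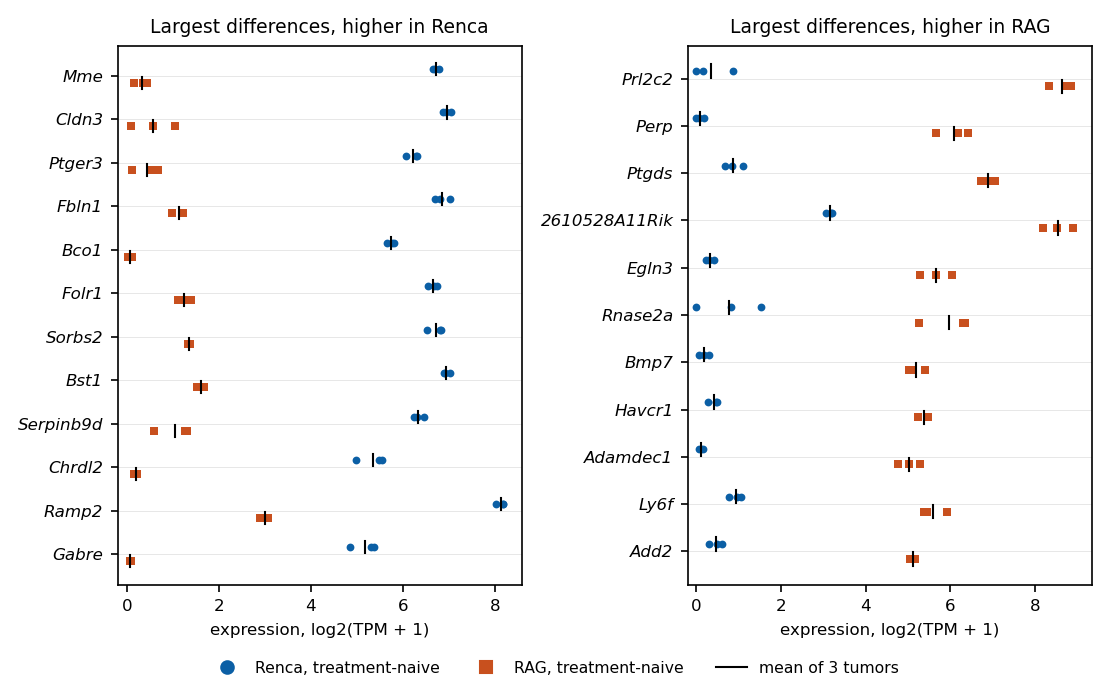
Expression of protein-coding genes with the largest called differences, 12 higher in Renca and 11 higher in RAG, as log2(TPM + 1) on the horizontal axis. Circles are the 3 treatment-naïve Renca tumors, squares the 3 RAG tumors, and black ticks the means. The models do not overlap for any of these genes, which were chosen for the size of their difference.

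Many of the largest differences were close to on or off, but Ramp2 kept 6.45 to 7.37 TPM in RAG and 2610528A11Rik 7.38 to 8.24 TPM in Renca. In Renca, the largest was in Mme (chr3:63241537-63386030), the membrane peptidase neprilysin of the proximal tubule brush border, at 100.4, 109 and 103 TPM in Renca and 0.36, 0.27 and 0.12 TPM in RAG (log2 difference 6.40 ± 0.12, adjusted p = 2.16e-07). Next were the tight junction protein Cldn3 at 121, 116 and 131 TPM in Renca and 0.48, 0.06 and 1.06 TPM in RAG (log2 difference 6.39 ± 0.22, adjusted p = 8.47e-07) and the prostaglandin E2 receptor Ptger3 at 66.2, 77.4 and 78.7 TPM in Renca and 0.6, 0.08 and 0.45 TPM in RAG (log2 difference 5.78 ± 0.17, adjusted p = 4.4e-07). Each of these genes was near or under 1 TPM in every RAG tumor. The extracellular matrix protein Fbln1 (5.72), the carotenoid-cleaving enzyme Bco1 (5.67), the folate receptor Folr1 (5.41), the actin-binding adaptor Sorbs2 (5.37) and the ectoenzyme Bst1 (5.32) followed. Serpinb9d (5.28), one of a family of closely similar serpins, the BMP antagonist Chrdl2 (5.14), the receptor modulator Ramp2 (5.12) and the GABA receptor subunit Gabre (5.10) completed the 12. Renca ranked highest of the 12 models for 11 of these genes and behind KLN205 for Cldn3.

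In RAG, the largest difference was in Prl2c2 (chr13:12996125-13005383), the placental hormone proliferin, at 0.83, 0 and 0.12 TPM in Renca and 456, 418 and 319 TPM in RAG (log2 difference -8.28 ± 0.24, adjusted p = 4.4e-07). Prl2c2 belongs to a family of nearly identical genes, and how reads were shared among its members is uncertain. Perp, an effector of p53 in cell adhesion and death, had 0.13, 0.04 and 0 TPM in Renca and 49.7, 84.5 and 71.6 TPM in RAG (log2 difference -6.01 ± 0.19, adjusted p = 5.85e-07), and the prostaglandin D2 synthase Ptgds had 0.6, 1.16 and 0.79 TPM in Renca and 117, 131 and 104 TPM in RAG (log2 difference -6.01 ± 0.15, adjusted p = 3.14e-07). The other genes were 2610528A11Rik (-5.38), the HIF prolyl hydroxylase Egln3 (-5.34), the ribonuclease Rnase2a (-5.19), the kidney morphogen Bmp7 (-5.00) and Havcr1 (-4.97), the tubular injury marker KIM-1. They also included the protease Adamdec1 (-4.91), Ly6f (-4.66) and the cytoskeletal adducin Add2 (-4.63). The genes given here were all called in the same direction at day 8.

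Pax2 and Pax8, transcription factors of the kidney lineage, were expressed in both models. Pax2, which with Pax8 sets up the nephric lineage, was at 13.6, 16.7 and 17.2 TPM in Renca and 13.7, 17.6 and 16.7 TPM in RAG and did not pass the test (log2 difference -0.01 ± 0.14, adjusted p = 0.966). RAG ranked first and Renca second of the 12 models for Pax2, with a highest mean among the other 10 models of 3.67 on the log2(TPM + 1) scale against 4.07 for Renca. Pax8 was at 49.0, 65.7 and 58.0 TPM in Renca and 17.6, 24.97 and 25.3 TPM in RAG (log2 difference 1.32 ± 0.18, adjusted p = 0.000648), and Renca and RAG again ranked first and second. The same was so for the cadherin Cdh16 (1.54), a surface protein of tubules, and for Emx2 (1.54), both higher in Renca. Of 18 lineage genes, 8 were below the minimum for testing. Renca and RAG were the 2 highest models for 5 of the 10 tested, against 4.76% of all genes tested. The minimum was set on these 2 models, so lineage genes low in both were not ranked and could not lower this count.

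Other lineage genes differed between the models or were low. Of the 10 lineage genes tested, 5 were higher in Renca (34.8% of all genes) and 3 higher in RAG (12.4% of all genes), and all 8 calls were repeated at day 8. Wt1, a regulator of the nephron progenitor and podocyte, was at 0.2, 0.72 and 0.15 TPM in Renca and 7.13, 4.9 and 5.76 TPM in RAG (log2 difference -2.36 ± 0.22, adjusted p = 0.000106). Eya1, a factor of the nephron progenitor, was at 0.09, 0.04 and 0.02 TPM in Renca and 3.81, 3.44 and 3.51 TPM in RAG (log2 difference -2.13 ± 0.17, adjusted p = 6.2e-05). No Renca tumor reached 1 TPM for either gene. Irx3, of the developing nephron, was higher in Renca (log2 difference 1.03 ± 0.14, adjusted p = 0.000654). Lhx1 (0 to 0.3 TPM) and Hnf4a (0 to 0.5 TPM), the latter a master regulator of the proximal tubule, were too low in both models to test.

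Genes of the mature tubule were mostly absent. Of 31 proximal tubule genes, 20 were below the minimum for testing, among them the endocytic receptors Lrp2 (0.61 to 0.98 TPM in Renca and 0 to 0.02 TPM in RAG) and Cubn (0.13 to 0.29 and 0.21 to 0.31 TPM) and the phosphate transporter Slc34a1 (0 to 0.03 TPM in Renca and listed at 0 in RAG). The distal markers Umod and Slc12a1 were listed at 0 in all 6 tumors, and Slc12a3 reached 1 TPM in 1 RAG tumor only. Of the 11 proximal genes tested, 4 were higher in each model (34.8% and 12.4% of all genes). Havcr1, at 0.38, 0.41 and 0.2 TPM in Renca and 36.5, 43 and 42.6 TPM in RAG, was higher in RAG than in any other model. The urea cycle enzyme Ass1 was at 6.42, 7.04 and 8.52 TPM in Renca and 36.9, 49.9 and 39.2 TPM in RAG (log2 difference -2.37 ± 0.16, adjusted p = 2.01e-05), and Renca was the lowest of the 12 models. Vcam1, an adhesion molecule of injured tubule and vessels, was also higher in RAG (log2 difference -1.69 ± 0.14, adjusted p = 6.65e-05). Aqp2, the water channel of the collecting duct, was at 5.77, 6.34 and 7.72 TPM in Renca and 0.32, 0.82 and 0.24 TPM in RAG (log2 difference 2.39 ± 0.20, adjusted p = 6.59e-05), and Renca ranked highest of the 12 models. Of 4 distal genes tested, 2 were higher in Renca and 1 in RAG (34.8% and 12.4%).

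Of 18 epithelial genes tested, 9 were higher in Renca and 4 in RAG (34.8% and 12.4% of all genes), with a median difference of 0.74. E-cadherin, Cdh1, was at 25.1, 30.1 and 21.4 TPM in Renca and 1.19, 1.08 and 1.78 TPM in RAG (log2 difference 3.50 ± 0.17, adjusted p = 4.77e-06), and keratin 8, Krt8, at 299, 373 and 359.8 TPM in Renca and 17.7, 24.1 and 23.6 TPM in RAG (log2 difference 3.92 ± 0.16, adjusted p = 1.8e-06). Its partner keratin 18, Krt18, ran the other way, at 198, 231 and 233 TPM in Renca and 348, 478 and 428 TPM in RAG (log2 difference -0.91 ± 0.15, adjusted p = 0.00209), so that the ratio of mean TPM between models was 15.8-fold toward Renca for Krt8 and 1.9-fold toward RAG for Krt18. The tight junction genes were also split. Cldn1 was at 41.7, 58.9 and 50.5 TPM in Renca and 0.54, 0.9 and 0.6 TPM in RAG (log2 difference 4.93 ± 0.16, adjusted p = 5.85e-07) and Cldn4 was higher in Renca by 4.37, whereas Ocln was at 0.17, 0.1 and 0 TPM in Renca and 2.39, 4.62 and 2.72 TPM in RAG (log2 difference -1.93 ± 0.24, adjusted p = 0.000479). Krt7 (-1.95) and the protease inhibitor Spint2 (-1.10) were higher in RAG. Epcam, an adhesion molecule of simple epithelia, was low in both models, at 4.17, 2.52 and 2.61 TPM in Renca and 1.07, 0.45 and 1.47 TPM in RAG (log2 difference 1.05 ± 0.25, adjusted p = 0.0108).

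Of 14 genes of the mesenchymal program tested, 9 were higher in Renca and 2 in RAG (34.8% and 12.4% of all genes), with a median of 0.78. At day 8 the list was even, with 3 of 13 higher in Renca and 3 in RAG (25.1% and 20.5% of all genes there). The transcription factor Snai1 was at 16.2, 18.6 and 18.8 TPM in Renca and 1.78, 1.98 and 1.82 TPM in RAG (log2 difference 2.72 ± 0.12, adjusted p = 2.66e-06). Twist2 (2.80), Zeb1 (0.93), Snai2 (0.87) and the calcium-binding protein S100a4 (2.23) were also higher in Renca, and the receptor Axl (-1.35) and the AP-1 subunit Fosl1 (-1.95) in RAG. Vimentin, Vim, did not pass the test, at 825, 1047 and 884 TPM in Renca and 647, 909.8 and 805 TPM in RAG (log2 difference 0.23 ± 0.17, adjusted p = 0.298), and N-cadherin, Cdh2, stayed under 1 TPM in all 6 tumors. In a bulk tumor, fewer cells of a type and less RNA per cell cannot be told apart, and the summed level of the fibroblast genes was 2010.4 to 3047 TPM in Renca and 638 to 708 TPM in RAG, whose part in the mesenchymal genes was not tested.

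Genes of the hypoxia response were more often higher in RAG. Promoters are printed for the 3 genes of the list with the largest difference toward RAG, Egln3, Adm and Car9, to show whether they hold the core of the site that HIF binds. The sequences are RefSeq promoters on build GRCm38.p6, from 250 bases before to 50 after the start of the gene, with each core of the hypoxia response element, ACGTG or GCGTG on either strand, in capitals. Car9 lies at chr4:43506776-43507075, + strand, Egln3 at chr12:54203825-54204124, - strand and Adm at chr7:110627407-110627706, + strand, all as windows around the first base of the gene.
Car9: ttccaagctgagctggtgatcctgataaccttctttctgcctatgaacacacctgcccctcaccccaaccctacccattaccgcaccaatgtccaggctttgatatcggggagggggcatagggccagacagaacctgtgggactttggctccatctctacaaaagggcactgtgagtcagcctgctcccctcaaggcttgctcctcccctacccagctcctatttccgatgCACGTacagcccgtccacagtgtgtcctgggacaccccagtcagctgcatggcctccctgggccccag
Egln3: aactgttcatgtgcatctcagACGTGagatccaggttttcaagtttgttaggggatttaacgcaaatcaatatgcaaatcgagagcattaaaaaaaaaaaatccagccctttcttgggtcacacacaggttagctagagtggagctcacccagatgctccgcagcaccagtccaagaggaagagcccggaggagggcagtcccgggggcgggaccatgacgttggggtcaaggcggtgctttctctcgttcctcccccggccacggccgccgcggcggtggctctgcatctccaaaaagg
Adm: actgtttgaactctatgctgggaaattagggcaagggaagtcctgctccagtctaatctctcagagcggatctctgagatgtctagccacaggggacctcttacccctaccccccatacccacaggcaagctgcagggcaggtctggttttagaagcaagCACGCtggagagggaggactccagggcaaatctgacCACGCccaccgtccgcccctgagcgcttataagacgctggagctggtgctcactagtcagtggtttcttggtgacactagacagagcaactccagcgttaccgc
The core was found in 26 of 33 promoters of the list (78.8%) and in 48.4% of all 19086 promoters of this length. A match describes letters in the window and is no measure of binding.

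Of 36 hypoxia and glycolysis genes tested, 19 were higher in RAG, against 12.4% of all genes, and 6 higher in Renca, with a median difference of -0.66. After protein-coding rescaling, 27 were higher in RAG and 5 in Renca (20.5% and 27.2% of all genes). At day 8, 9 of 36 were higher in Renca and 14 in RAG (25.1% and 20.5% of all genes there), with a median of 0.07. Car9, the carbonic anhydrase CA IX used as a tissue marker of hypoxia, was at 1.14, 1.59 and 2.09 TPM in Renca and 35.5, 62.1 and 34.6 TPM in RAG (log2 difference -4.08 ± 0.24, adjusted p = 1.3e-05). Egln3, the oxygen sensor PHD3 and itself a HIF target, was at 0.18, 0.34 and 0.23 TPM in Renca and 38.0, 64.5 and 49.1 TPM in RAG (log2 difference -5.34 ± 0.19, adjusted p = 9.34e-07). Renca had the lowest Car9 and the lowest Egln3 of the 12 models, and RAG ranked 3 for both.

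The glucose transporter Slc2a1 was at 11.7, 13.7 and 11.8 TPM in Renca and 41.9, 65.4 and 47.0 TPM in RAG (log2 difference -1.95 ± 0.17, adjusted p = 9.3e-05), and the mitophagy receptor Bnip3 was at 32.1, 24.4 and 22.6 TPM in Renca and 107, 144 and 109 TPM in RAG (log2 difference -2.15 ± 0.18, adjusted p = 6.01e-05). Ndrg1, a stress-induced gene, was at 187, 226 and 204 TPM in Renca and 262, 444 and 294 TPM in RAG (log2 difference -0.66 ± 0.20, adjusted p = 0.0296), and RAG and Renca were its 2 highest models. A few genes of the list ran the other way. The collagen crosslinking enzyme Lox was at 50.2, 59.4 and 47.1 TPM in Renca and 8.36, 12.1 and 11.1 TPM in RAG (log2 difference 2.21 ± 0.16, adjusted p = 3.31e-05), and hexokinase 2, Hk2, was at 24.4, 29.2 and 26.4 TPM in Renca and 9.16, 8.39 and 8.14 TPM in RAG (log2 difference 1.53 ± 0.12, adjusted p = 4.33e-05).

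Of 24 genes of the VHL, HIF and renal cancer suppressor list, 14 were higher in Renca and 0 in RAG (34.8% and 12.4% of all genes). Protein-coding rescaling gave 11 and 1 (27.2% and 20.5%), and the upper quartile 9 and 1 (25.9% and 21.9%). The day 8 tumors gave 7 and 3 (25.1% and 20.5%), with the count toward Renca near that of all genes. Vhl was at 17.4, 13.3 and 15.99 TPM in Renca and 16.1, 17.8 and 13.3 TPM in RAG and did not pass the test (log2 difference -0.01 ± 0.15, adjusted p = 0.956). Hif1a was at 101, 126 and 109.7 TPM in Renca and 43.4, 46.2 and 42.9 TPM in RAG (log2 difference 1.32 ± 0.12, adjusted p = 0.000115), and Renca ranked highest and RAG 10th of the 12 models. Epas1, which encodes HIF-2α and is also expressed by endothelial cells, was at 18.5, 25.2 and 19.1 TPM in Renca and 9, 9.23 and 9.78 TPM in RAG (log2 difference 1.07 ± 0.14, adjusted p = 0.000628). Sdhb, a subunit of succinate dehydrogenase, was higher in Renca (log2 difference 1.33 ± 0.17, adjusted p = 0.000569). RNA levels say nothing of the HIF proteins, whose stability is regulated.

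**Figure D2:**
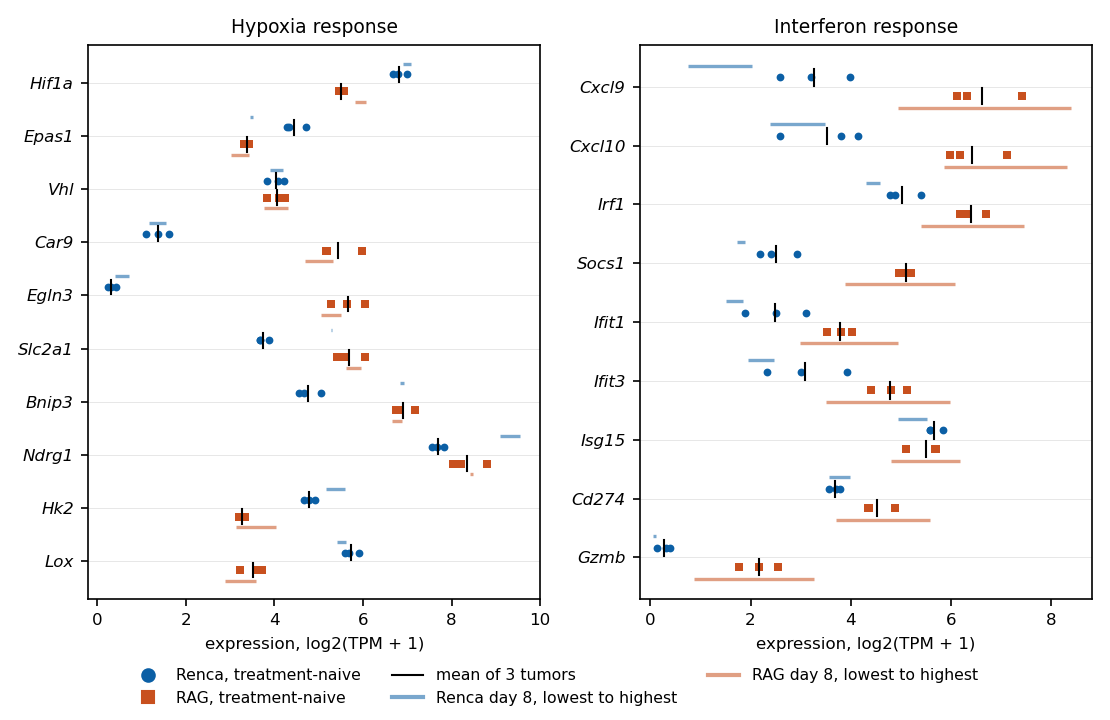
Expression of hypoxia and interferon response genes as log2(TPM + 1) on the horizontal axis. Circles and squares are the treatment-naïve Renca and RAG tumors, black ticks their means, and bars the range of the 3 NT tumors of day 8. Car9 and Egln3 stay apart at day 8, while Bnip3 of Renca moves to the level of RAG. Day 8 bars of RAG are wide for interferon genes.

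Renca carried more RNA of vessels. Of 24 endothelial genes tested, 18 were higher in Renca and 1 higher in RAG (34.8% and 12.4% of all genes), with a median of 1.55 as deposited and 1.39 after protein-coding rescaling. The summed level of the list was 408 to 533 TPM in Renca and 201 to 207 TPM in RAG. Kdr (chr5:75932827-75978458), the VEGF receptor VEGFR2, was at 13.2, 17.5 and 16.1 TPM in Renca and 2.36, 1.89 and 2.32 TPM in RAG (log2 difference 2.37 ± 0.14, adjusted p = 1.35e-05), the highest and the lowest mean of the 12 models. VE-cadherin, Cdh5, was at 25.8, 33.8 and 27.4 TPM in Renca and 7, 7.63 and 6.88 TPM in RAG (log2 difference 1.87 ± 0.13, adjusted p = 2.95e-05). Endoglin, Eng, was at 46.0, 60.0 and 52.5 TPM in Renca and 12.2, 11.5 and 11.5 TPM in RAG (log2 difference 2.07 ± 0.13, adjusted p = 1.52e-05). RAG also ranked last of 12 for Cdh5 and Eng. The apelin receptor Aplnr, of sprouting vessels, was at 13.1, 19.1 and 16.7 TPM in Renca and 0.74, 1.01 and 0.71 TPM in RAG (log2 difference 3.24 ± 0.17, adjusted p = 6.35e-06).

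The angiopoietin receptor Tek was at 2.48, 4.32 and 2.82 TPM in Renca and 0.78, 0.69 and 0.77 TPM in RAG (log2 difference 1.24 ± 0.20, adjusted p = 0.00177), and Pecam1, which encodes CD31, at 26.7, 37.2 and 29.8 TPM in Renca and 14.9, 18.8 and 14.8 TPM in RAG (log2 difference 0.91 ± 0.16, adjusted p = 0.00251). The transcription factor Sox18 (2.04), the junction protein Esam (1.97), the fenestral diaphragm protein Plvap (1.90) and the sialomucin Emcn (1.81) were higher in Renca by close to 2 log2 units. Flt1, the decoy-like receptor VEGFR1, was at 10.7, 15.6 and 12.9 TPM in Renca and 9.51, 11.7 and 12.3 TPM in RAG, with overlapping groups (log2 difference 0.20 ± 0.16, adjusted p = 0.336). Ly6c1, which vessels share with monocytes and lymphocytes, was the 1 gene of the list higher in RAG (log2 difference -0.83 ± 0.27, adjusted p = 0.0343).

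Mural and fibroblast genes were also more often higher in Renca. Of 11 pericyte and smooth muscle genes tested, 7 were higher in Renca and 0 in RAG (34.8% and 12.4% of all genes). Protein-coding rescaling gave 6 and 0 (27.2% and 20.5%), and the upper quartile 5 and 0 (25.9% and 21.9%). Rgs5, a pericyte marker, was at 42, 50.5 and 49.4 TPM in Renca and 9.68, 13.2 and 16.3 TPM in RAG (log2 difference 1.80 ± 0.18, adjusted p = 0.000176), and the potassium channel subunits Abcc9 (1.53) and Kcnj8 (1.05) were also higher. Acta2 (log2 difference 0.72 ± 0.17, adjusted p = 0.00962) and Pdgfrb (log2 difference 0.51 ± 0.16, adjusted p = 0.0337) differed less, and after protein-coding rescaling Pdgfrb no longer passed (adjusted p = 0.185 by limma).

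Of 15 fibroblast genes tested, 10 were higher in Renca and 0 in RAG (34.8% and 12.4% of all genes). The main collagen of fibroblasts, Col1a1, was at 804, 1016 and 655 TPM in Renca and 137, 152 and 156 TPM in RAG (log2 difference 2.44 ± 0.17, adjusted p = 3.04e-05). Col3a1 was at 527, 735 and 455 TPM in Renca and 97.6, 112 and 115 TPM in RAG (log2 difference 2.37 ± 0.19, adjusted p = 5.06e-05). The matrix proteoglycans Lum (2.06) and Dcn (1.45) and the receptor Pdgfra (0.77) were higher in Renca too. Among collagen and basement membrane genes, 17 of 25 were higher in Renca and 2 in RAG (34.8% and 12.4% of all genes). The vascular collagens Col4a1, at 132, 184 and 144 TPM in Renca and 38.1, 57.3 and 85.5 TPM in RAG (log2 difference 1.39 ± 0.28, adjusted p = 0.00431), and Col4a2 (1.21) and the laminin Lama4 (1.27) were among them, and Col18a1, the source of endostatin, did not pass (log2 difference 0.46 ± 0.18, adjusted p = 0.0621).

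Day 8 tumors repeated 66.2% of all treatment-naïve calls. Of the 19 endothelial calls, 13 were made in the same direction there, close to that share. For other lists these were 3 of 7 for pericytes, 3 of 10 for fibroblasts and 10 of 19 for collagens. Kdr ranged over 6.43 to 7.92 TPM in Renca and 2.76 to 3.44 TPM in RAG at day 8 (log2 difference 0.94 ± 0.13, adjusted p = 0.00124), and the change of the difference was itself called (-1.43 ± 0.19, adjusted p = 0.00954). The change was called toward RAG for 8 of 24 endothelial genes tested (1.33% of all genes) and toward Renca for 0 (0.225%), with Aplnr (-2.24), Sox18 (-1.42) and Cdh5 (-1.13) among them. After protein-coding rescaling 5 were called toward RAG and 0 toward Renca. Leaving out 1 of the 12 tumors gave 3 to 11 toward RAG and again 0 toward Renca. Kdr and Aplnr kept their call in each of these fits, while Sox18 lost it in 4 of the 12 and Cdh5 in 7 and with rescaling (adjusted p = 0.0874 by limma). Pecam1 was not called at day 8, at 12.8 to 18.3 TPM in Renca and 13.9 to 19.2 TPM in RAG (adjusted p = 0.583 by limma).

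**Figure D3:**
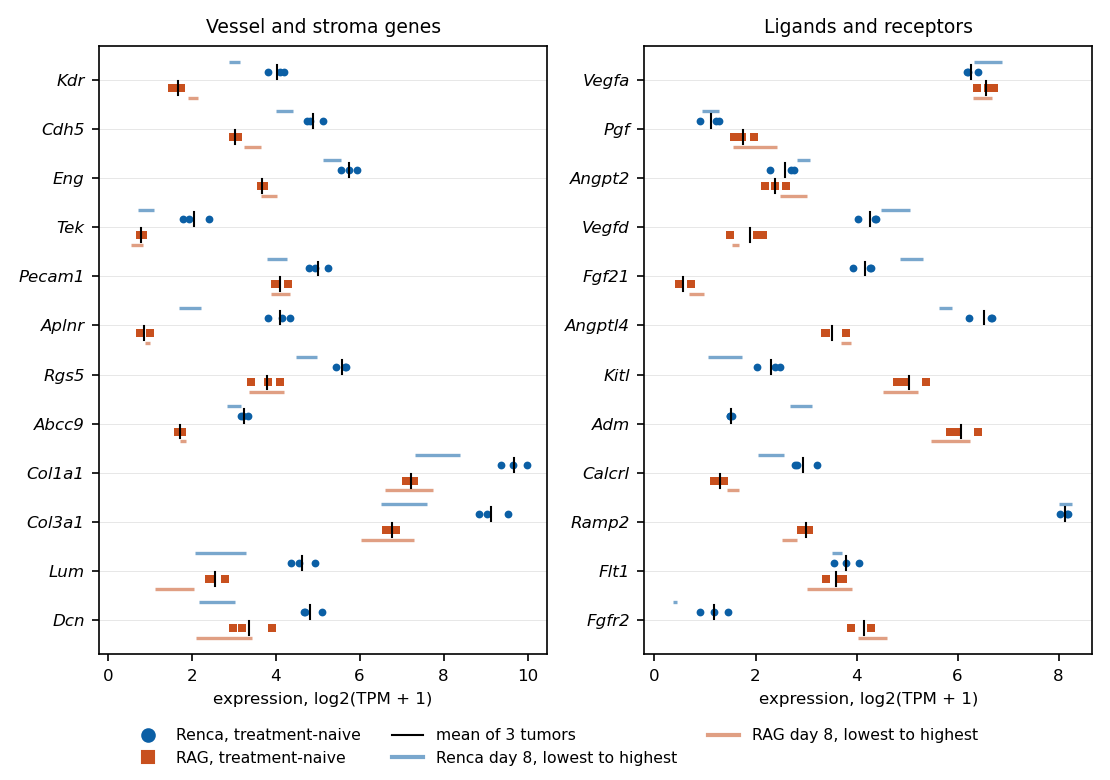
Expression of vessel and stroma genes and of ligands and receptors, as log2(TPM + 1) on the horizontal axis. Circles and squares are treatment-naïve Renca and RAG tumors, black ticks their means, and bars the range of the 3 NT tumors of day 8. Vessel and stroma genes of Renca lie to the right of RAG before treatment and closer to RAG at day 8.

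Of 22 angiogenic ligands tested, 8 were higher in Renca and 8 in RAG (34.8% and 12.4% of all genes). Protein-coding rescaling gave 7 and 10 (27.2% and 20.5%). The count toward Renca was near that of all genes. Vegfa was at 71.6, 83.8 and 72.8 TPM in Renca and 83.1, 104 and 96.1 TPM in RAG and did not pass as deposited (log2 difference -0.31 ± 0.13, adjusted p = 0.0925). It was called higher in RAG after protein-coding rescaling, by -0.51 (adjusted p = 0.00375 by limma). Pgf, a ligand of VEGFR1, was higher in RAG (log2 difference -0.63 ± 0.19, adjusted p = 0.0272), and Angpt2, the ligand of Tek that destabilizes vessels, did not pass (log2 difference 0.19 ± 0.18, adjusted p = 0.411). Vegfc stayed at or under 1.91 TPM in all tumors and was not tested, whereas the related lymphatic ligand Vegfd was at 15.3, 19.9 and 19.7 TPM in Renca and 3.42, 3.06 and 1.81 TPM in RAG (log2 difference 2.38 ± 0.20, adjusted p = 6.27e-05).

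The metabolic hormone Fgf21 was at 14.3, 18.6 and 18.2 TPM in Renca and 0.42, 0.4 and 0.64 TPM in RAG (log2 difference 3.59 ± 0.15, adjusted p = 2.27e-06), the highest of the 12 models, while its co-receptor Klb stayed at or under 0.35 TPM in all 6 tumors. Angptl4, an inhibitor of lipoprotein lipase induced by fasting and hypoxia, was at 74.2, 102 and 99.7 TPM in Renca and 12.8, 9.52 and 9.38 TPM in RAG (log2 difference 3.01 ± 0.17, adjusted p = 1.11e-05), opposite to most of the hypoxia genes. The stem cell factor Kitl was at 3.11, 4.57 and 4.23 TPM in Renca and 26.8, 40.3 and 30.3 TPM in RAG (log2 difference -2.74 ± 0.18, adjusted p = 2.17e-05).

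Adrenomedullin and its receptor were divided between the models. Adm, which encodes this vasodilator peptide, was at 1.83, 1.89 and 1.82 TPM in Renca and 56.8, 84.1 and 61.2 TPM in RAG (log2 difference -4.57 ± 0.16, adjusted p = 8.01e-07), and RAG had the highest level of the 12 models. Its receptor is the G protein-coupled receptor Calcrl, which binds adrenomedullin when paired with Ramp2 or Ramp3 and the related peptide CGRP when paired with Ramp1. Ramp2 was at 258, 288 and 287 TPM in Renca and 7.27, 6.45 and 7.37 TPM in RAG (log2 difference 5.12 ± 0.11, adjusted p = 2.16e-07), a 39.5-fold ratio of means. Calcrl was at 6.08, 8.29 and 5.88 TPM in Renca and 1.6, 1.27 and 1.47 TPM in RAG (log2 difference 1.65 ± 0.16, adjusted p = 0.000149). Ramp1 (log2 difference 0.23 ± 0.20, adjusted p = 0.365) and Ramp3 (log2 difference -0.09 ± 0.18, adjusted p = 0.703) did not pass, and Calca, which encodes CGRP, was listed at 0 in all 6 tumors. Calcrl, Ramp1, Ramp3, Calca and Klb were looked up after the values of Ramp2 and Fgf21 had been seen.

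LEN inhibits VEGF receptors, FGF receptors, PDGFRA, KIT and RET. Of 7 of these kinase genes tested in the untreated tumors, 4 were higher in Renca and 1 in RAG (34.8% and 12.4% of all genes). Besides Kdr, these were the lymphatic receptor Flt4 (log2 difference 1.46 ± 0.18, adjusted p = 0.000389), Fgfr1 at 78.9, 84.2 and 79.1 TPM in Renca and 44.3, 42.5 and 56.7 TPM in RAG (log2 difference 0.75 ± 0.14, adjusted p = 0.00297) and Pdgfra. Fgfr2, a receptor of epithelia, was at 1.25, 1.73 and 0.86 TPM in Renca and 13.9, 18.5 and 18.5 TPM in RAG (log2 difference -2.98 ± 0.18, adjusted p = 1.45e-05). Fgfr3 reached 1 TPM in 2 RAG tumors and no Renca tumor, and Fgfr4 stayed at or under 0.06 TPM, so neither was tested.

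RAG was higher in genes that interferon-γ induces. Their promoters are shown for 3 genes of the response because most tested genes of this list and of the interferon-stimulated genes were higher in RAG. Irf1 (chr11:53769764-53770063, + strand) is shown with the core of the interferon-gamma-activated site, TTCNNNGAA, in capitals, and Cxcl10 (chr5:92348840-92349139, - strand) and Ifit3 (chr19:34583279-34583578, + strand) with the core of the interferon-stimulated response element, GAAANNGAAA on either strand. The windows and source are those given for the hypoxia genes.
Irf1: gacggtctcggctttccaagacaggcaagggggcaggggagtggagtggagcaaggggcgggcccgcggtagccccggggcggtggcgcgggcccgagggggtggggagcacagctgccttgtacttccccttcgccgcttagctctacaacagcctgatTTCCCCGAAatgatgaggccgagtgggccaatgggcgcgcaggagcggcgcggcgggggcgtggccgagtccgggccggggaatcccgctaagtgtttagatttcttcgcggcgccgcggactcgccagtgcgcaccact
Cxcl10: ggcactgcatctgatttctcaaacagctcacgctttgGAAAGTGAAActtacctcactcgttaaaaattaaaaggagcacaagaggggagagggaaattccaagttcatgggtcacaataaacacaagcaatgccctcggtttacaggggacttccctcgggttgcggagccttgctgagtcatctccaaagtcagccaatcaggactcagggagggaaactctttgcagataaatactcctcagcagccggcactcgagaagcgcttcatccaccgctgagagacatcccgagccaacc
Ifit3: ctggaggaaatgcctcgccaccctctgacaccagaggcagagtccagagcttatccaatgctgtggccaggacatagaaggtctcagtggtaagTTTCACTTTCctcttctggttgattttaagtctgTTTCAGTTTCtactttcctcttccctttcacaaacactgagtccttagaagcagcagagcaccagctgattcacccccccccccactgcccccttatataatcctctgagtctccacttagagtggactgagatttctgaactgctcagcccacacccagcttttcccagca
The interferon-gamma-activated core was found in 6 of 18 promoters of the interferon-γ list (33.3%) and in 8.0% of all promoters, and the response element core in 12 of 20 promoters of interferon-stimulated genes (60.0%) and in 3.42% of all promoters.

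Of 22 interferon-γ response genes tested, 16 were higher in RAG, against 12.4% of all genes, and 2 in Renca, with a median of -1.45. The chemokine Cxcl9 was at 5.05, 14.8 and 8.2 TPM in Renca and 169, 68.8 and 79.0 TPM in RAG (log2 difference -3.36 ± 0.41, adjusted p = 0.000445). Cxcl10 was at 5.05, 16.7 and 13.1 TPM in Renca and 138, 62.4 and 71.2 TPM in RAG (log2 difference -2.91 ± 0.43, adjusted p = 0.00105). RAG tumor 1 was well above the other RAG tumors for both, and no Renca tumor reached the lowest RAG tumor. Cxcl11 was at 0.28, 2.13 and 0.96 TPM in Renca and 28.0, 13.0 and 13.8 TPM in RAG (log2 difference -3.19 ± 0.37, adjusted p = 0.000349), and RAG ranked highest of the 12 models.

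The transcription factor Irf1 was at 28.7, 41.5 and 26.4 TPM in Renca and 103, 71.9 and 77.8 TPM in RAG (log2 difference -1.37 ± 0.20, adjusted p = 0.00111), with Renca last of the 12 models, and the feedback inhibitor Socs1 at 3.55, 6.63 and 4.3 TPM in Renca and 35.6, 30.3 and 33.8 TPM in RAG (log2 difference -2.59 ± 0.19, adjusted p = 3.75e-05). The guanylate-binding protein Gbp4 (-2.97) and the GTPase Iigp1 (-3.005) were higher in RAG.

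Interferon-stimulated genes were also mostly higher in RAG, 19 of 28 tested against 2 higher in Renca (12.4% and 34.8% of all genes), with a median of -0.91. The nucleic acid sensor Zbp1 was at 17.4, 25 and 19.98 TPM in Renca and 223, 119 and 151 TPM in RAG (log2 difference -2.89 ± 0.24, adjusted p = 6e-05). The antiviral genes Ifit3 (log2 difference -1.70 ± 0.37, adjusted p = 0.00694), Ifit1 (log2 difference -1.29 ± 0.29, adjusted p = 0.0078) and Rsad2 (log2 difference -1.91 ± 0.34, adjusted p = 0.00273) were higher in RAG, and Renca tumor 2 had the highest values of its model, at 14.1 TPM of Ifit3 against 4 and 7.03 TPM. Isg15, at 46.7, 56.6 and 47.0 TPM in Renca and 50.2, 33.5 and 50.8 TPM in RAG, overlapped between models (log2 difference 0.18 ± 0.18, adjusted p = 0.453), and Mx1 did not pass (log2 difference -0.81 ± 0.31, adjusted p = 0.0639). At day 8, 19 of the 21 calls of this list and 14 of 18 of the interferon-γ list were made again.

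The class I heavy chains H2-K1 (log2 difference -0.01 ± 0.14, adjusted p = 0.97) and H2-D1 (log2 difference -0.01 ± 0.14, adjusted p = 0.946) and the light chain B2m, at 1189, 1221 and 1412 TPM in Renca and 1414, 1459 and 958 TPM in RAG (log2 difference 0.02 ± 0.19, adjusted p = 0.948), did not pass. The class Ib gene H2-Q7 was at 4.53, 5.04 and 5.42 TPM in Renca and 50.6, 54.1 and 45.7 TPM in RAG (log2 difference -3.09 ± 0.12, adjusted p = 1.46e-06), although the H2-Q genes are near-identical copies and reads may be divided among them. The immunoproteasome subunit Psmb10 was at 44.0, 51.4 and 45.4 TPM in Renca and 149.8, 145 and 147 TPM in RAG (log2 difference -1.63 ± 0.11, adjusted p = 2.8e-05). The peptide transporter Tap1 was higher in RAG by a smaller margin (log2 difference -0.53 ± 0.13, adjusted p = 0.0132), a call that was lost when all 35 treatment-naïve tumors were fitted together (adjusted p = 0.224 by limma). Of 16 class I genes tested, 7 were higher in RAG and 2 in Renca (12.4% and 34.8% of all genes), and 4 of these 9 calls were repeated at day 8. Of 11 class II genes tested, 6 were higher in RAG and 1 in Renca (12.4% and 34.8% of all genes), with H2-Aa at 280.4, 286 and 262 TPM in Renca and 458, 455 and 409 TPM in RAG (log2 difference -0.67 ± 0.12, adjusted p = 0.00257), H2-Ab1 (log2 difference -0.60 ± 0.12, adjusted p = 0.0045) and the invariant chain Cd74 (log2 difference -0.61 ± 0.13, adjusted p = 0.00713). In the fit of all 35 treatment-naïve tumors the calls of H2-Aa, H2-Ab1 and Cd74 were lost (adjusted p = 0.188 to 0.215 by limma). Ciita, the master regulator of class II genes, did not pass (log2 difference -0.23 ± 0.14, adjusted p = 0.196).

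Of 19 T cell genes, 13 reached the minimum for testing, 1 was higher in RAG and 0 in Renca (12.4% and 34.8% of all genes). Cd3e was at 1.97, 2.53 and 4.26 TPM in Renca and 4.49, 3.35 and 3.59 TPM in RAG (log2 difference -0.33 ± 0.23, adjusted p = 0.261) and Cd8a at 0.98, 1.12 and 1.04 TPM in Renca and 2.21, 0.98 and 0.94 TPM in RAG (log2 difference -0.18 ± 0.24, adjusted p = 0.578), and both overlapped between models. Cd4, of helper T cells, was at 3.03, 3.2 and 3.19 TPM in Renca and 4.7, 4.07 and 4.37 TPM in RAG (log2 difference -0.38 ± 0.13, adjusted p = 0.039). The summed level of the T cell list was 37.1 to 46.9 TPM in Renca and 38.2 to 48.7 TPM in RAG. At day 8, 6 of the 10 T cell genes tested were higher in RAG and 0 in Renca (20.5% and 25.1% of all genes there).

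Of 16 cytotoxic and NK cell genes, 9 were below the minimum for testing. Of the 7 tested, 5 were higher in RAG and 0 in Renca (12.4% and 34.8% of all genes). Gzmb reached the minimum through its RAG values alone, so this count is not independent of the filter. The summed level of all 16 genes was 25.5 to 35.2 TPM in Renca and 49.1 to 77.1 TPM in RAG. Granzyme B, Gzmb, was at 0.09, 0.31 and 0.25 TPM in Renca and 4.82, 2.4 and 3.52 TPM in RAG (log2 difference -1.88 ± 0.24, adjusted p = 0.000491), and Renca ranked last of the 12 models. Granzyme A, Gzma, was at 1.55, 2.03 and 2.33 TPM in Renca and 12.3, 7.45 and 9.22 TPM in RAG (log2 difference -1.83 ± 0.19, adjusted p = 0.000213), and the NK cell receptor Ncr1 at 0.73, 1.22 and 1.38 TPM in Renca and 1.98, 2.52 and 1.84 TPM in RAG (log2 difference -0.57 ± 0.20, adjusted p = 0.046). Perforin, Prf1, was under the minimum, at 0.28, 0.67 and 0.38 TPM in Renca and 1.82, 0.98 and 1.42 TPM in RAG. Every RAG tumor was above every Renca tumor for these 4 genes, and the share of all genes without overlap was not counted.

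Genes of checkpoints and immune suppressors were higher in RAG for 10 of 19 tested and in Renca for 1 (12.4% and 34.8% of all genes). Cd274, which encodes PD-L1, was at 10.9, 12.9 and 12.1 TPM in Renca and 28.5, 19.2 and 19.7 TPM in RAG (log2 difference -0.84 ± 0.17, adjusted p = 0.0044), and lost its call in the fit of all 35 treatment-naïve tumors (adjusted p = 0.0556 by limma). Pdcd1lg2, which encodes PD-L2, was at 1.63, 1.51 and 1.57 TPM in Renca and 12.2, 11.8 and 11.03 TPM in RAG (log2 difference -2.30 ± 0.12, adjusted p = 6.29e-06). Lag3, an inhibitory receptor of T cells, was at 1.53, 1.11 and 2.57 TPM in Renca and 10.2, 12.7 and 15.6 TPM in RAG (log2 difference -2.35 ± 0.23, adjusted p = 0.000133), and Tigit was higher in RAG by a smaller difference (log2 difference -1.07 ± 0.21, adjusted p = 0.00426). Pdcd1, the receptor PD-1, stayed under 1 TPM in all 6 tumors, at 0.18 to 0.45 TPM in Renca and 0.72 to 0.94 TPM in RAG.

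Of 18 macrophage and monocyte genes tested, 6 were higher in Renca and 5 in RAG (34.8% and 12.4% of all genes), the former near the share of all genes. These were 4 and 7 after protein-coding rescaling (27.2% and 20.5%). At day 8, 2 of 18 were higher in Renca and 8 in RAG (25.1% and 20.5%). The general marker Adgre1 (F4/80) was at 28.0, 28.6 and 33.5 TPM in Renca and 23.4, 27.2 and 22.0 TPM in RAG (log2 difference 0.30 ± 0.13, adjusted p = 0.0946), and Csf1r, the receptor of macrophage colony-stimulating factor, was higher in Renca by little (log2 difference 0.42 ± 0.12, adjusted p = 0.0243) and did not pass after protein-coding rescaling (adjusted p = 0.118 by limma). The monocyte chemokine receptor Ccr2 was at 62.1, 68.7 and 66.3 TPM in Renca and 18.1, 17.6 and 15.5 TPM in RAG (log2 difference 1.88 ± 0.11, adjusted p = 1.41e-05), and the scavenger receptors Mrc1 (1.23) and Cd163 (1.27) were higher in Renca.

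The macrophage genes Nos2, Cd68 and Spp1 were higher in RAG. Nos2, the inducible nitric oxide synthase, was at 1.85, 2.57 and 2.06 TPM in Renca and 14.7, 9.27 and 8.19 TPM in RAG (log2 difference -1.86 ± 0.21, adjusted p = 0.000309). The lysosomal marker Cd68 was at 137, 170.2 and 159.7 TPM in Renca and 256, 366 and 255 TPM in RAG (log2 difference -0.89 ± 0.18, adjusted p = 0.0042) and osteopontin, Spp1, at 773, 958 and 843 TPM in Renca and 1771, 2094 and 1644 TPM in RAG (log2 difference -1.09 ± 0.15, adjusted p = 0.000834), and RAG was the highest of the 12 models for both. At day 8, Nos2 was not called (adjusted p = 0.0951 by limma).

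Of 11 dendritic cell genes tested, 7 were higher in Renca and 2 in RAG (34.8% and 12.4% of all genes). Protein-coding rescaling gave 4 and 2 (27.2% and 20.5%), and the upper quartile 4 and 3 (25.9% and 21.9%). At day 8, 3 of 9 were higher in Renca and 4 in RAG (25.1% and 20.5% of all genes there). Cd209a, a lectin of monocyte-derived and type 2 dendritic cells, was at 14.4, 15.9 and 11.9 TPM in Renca and 0.81, 1.57 and 0.89 TPM in RAG (log2 difference 2.86 ± 0.18, adjusted p = 1.63e-05), the highest of the 12 models, and Flt3 did not pass (log2 difference 0.59 ± 0.22, adjusted p = 0.0569). Clec9a, a marker of cross-presenting dendritic cells, was at 1.55, 1.32 and 1.78 TPM in Renca and 3.56, 3.18 and 2.72 TPM in RAG (log2 difference -0.70 ± 0.16, adjusted p = 0.0086), whereas Xcr1 of the same cells was around 1 TPM and not tested. Of 8 neutrophil genes tested, 1 was higher in Renca and 2 in RAG (34.8% and 12.4% of all genes). S100a9 was at 7.42, 2.79 and 6.89 TPM in Renca and 0.75, 0.71 and 0.28 TPM in RAG (log2 difference 2.01 ± 0.32, adjusted p = 0.00142) and Retnlg at 0, 0.51 and 0.35 TPM in Renca and 5.3, 5.2 and 6.25 TPM in RAG (log2 difference -2.37 ± 0.20, adjusted p = 7.03e-05), so the list had no common direction, and S100a8 (log2 difference -0.53 ± 0.20, adjusted p = 0.0588) and Csf3r (log2 difference 0.43 ± 0.18, adjusted p = 0.0813) did not pass. Of the B and plasma cell genes, Cd79a, Ms4a1 and Jchain were under the minimum. Of 4 tested, the immunoglobulin chain Ighm (log2 difference 0.85 ± 0.15, adjusted p = 0.00238) and Pax5 (log2 difference 0.47 ± 0.14, adjusted p = 0.0256) were higher in Renca and Cd22 (log2 difference -1.05 ± 0.29, adjusted p = 0.0181) in RAG.

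Of 21 chemokines and growth factors of myeloid cells tested, 10 were higher in Renca and 7 in RAG (34.8% and 12.4% of all genes). Protein-coding rescaling gave 7 and 9 (27.2% and 20.5%). At day 8, 2 were higher in Renca and 9 in RAG (25.1% and 20.5% of all genes there). Ccl17, a ligand of CCR4, was at 28.9, 21.1 and 26.8 TPM in Renca and 1.48, 0.7 and 1.26 TPM in RAG (log2 difference 3.64 ± 0.18, adjusted p = 6.05e-06). The CXCR2 ligands Cxcl1 (log2 difference 1.13 ± 0.15, adjusted p = 0.000648) and Cxcl3 (log2 difference 2.49 ± 0.19, adjusted p = 4.64e-05) were higher in Renca, and Il1a (log2 difference -1.78 ± 0.16, adjusted p = 0.000105) and the CSF1R ligand Il34 (log2 difference -1.41 ± 0.17, adjusted p = 0.000425) in RAG. Ccl2, a ligand of CCR2 (log2 difference -0.11 ± 0.21, adjusted p = 0.679), and Csf1, the main growth factor of macrophages (log2 difference -0.20 ± 0.18, adjusted p = 0.386), did not pass, and Csf2 was not tested.

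**Figure D4:**
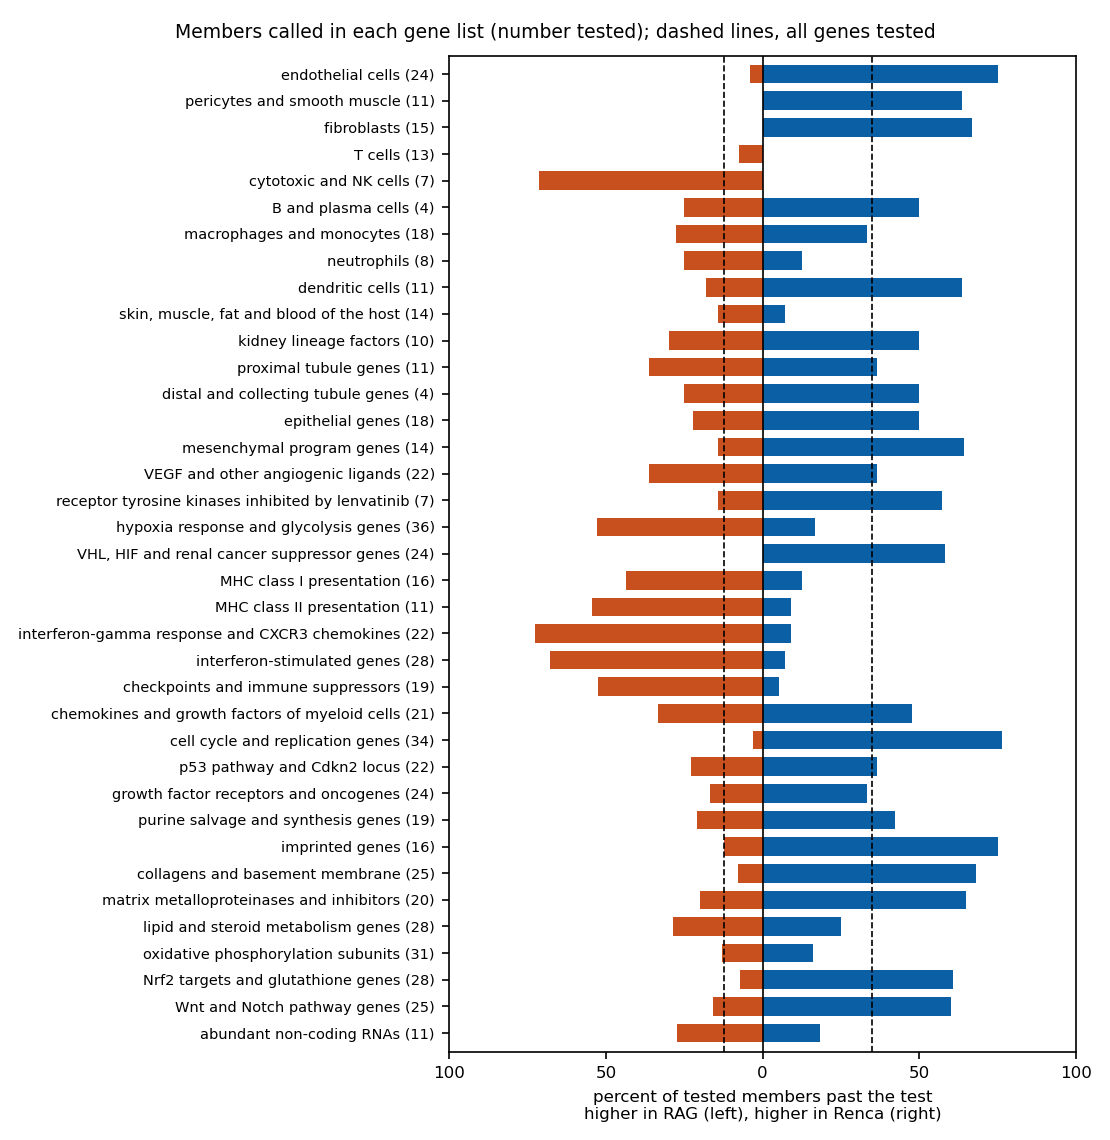
Percent of tested members of each gene list called higher in Renca (right) or higher in RAG (left) in treatment-naïve tumors, with the number tested in parentheses. Dashed lines mark 34.8% and 12.4%, the shares over all 16667 genes. Interferon and cytotoxic lists extend past the line toward RAG, and endothelial, imprinted and cell cycle lists past the line toward Renca.

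Most cell cycle genes were higher in Renca. Of 34 cell cycle genes tested, 26 were higher in Renca, against 34.8% of all genes, and 1 in RAG (median 0.94). Of these 27 calls, 26 were repeated at day 8. The helicase subunit Mcm4 was at 75.9, 99.2 and 85.1 TPM in Renca and 9.15, 13.3 and 9.15 TPM in RAG (log2 difference 2.94 ± 0.17, adjusted p = 1.27e-05), the highest mean of 12 models against the lowest. Mcm5 (2.02), Mcm2 (1.77) and the S phase cyclin Ccne2 (2.20) were higher in Renca. Top2a was higher in Renca by 0.76, whereas Mki67, at 57.4, 71.7 and 63.3 TPM in Renca and 35.9, 60.3 and 38.2 TPM in RAG (log2 difference 0.54 ± 0.20, adjusted p = 0.0596), and Ccnb1 (log2 difference 0.53 ± 0.22, adjusted p = 0.0861) did not pass, and for both RAG tumor 2 lay inside the range of Renca. Without RAG tumor 2, both were called higher in Renca, Mki67 by 0.77 (adjusted p = 0.00295 by limma) and Ccnb1 by 0.80 (adjusted p = 0.00155 by limma). That fit also raised the calls toward Renca over all genes, from 5797 to 6443. RAG tumor 2 had a protein-coding share of 49.4%, inside the 47.4% to 51.4% of Renca, and the other RAG tumors had 40.6% and 40.0%. The part of that share in these 2 calls was not tested. Cyclin D1, Ccnd1, was at 65.5, 89.9 and 75.6 TPM in Renca and 158, 238 and 194 TPM in RAG (log2 difference -1.33 ± 0.18, adjusted p = 0.000764), the 1 gene of the list higher in RAG.

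Of 22 genes of the p53 pathway tested, 8 were higher in Renca and 5 in RAG (34.8% and 12.4% of all genes). At day 8, 4 of 22 were higher in Renca and 7 in RAG (25.1% and 20.5% of all genes there). Protein-coding rescaling gave 7 and 8 (27.2% and 20.5%), and the count toward Renca as deposited was near that of all genes. Trp53 itself was at 32.8, 46.6 and 43.5 TPM in Renca and 56.4, 69.2 and 60.6 TPM in RAG (log2 difference -0.60 ± 0.16, adjusted p = 0.0163). Its targets Perp, given above, and Bax, at 28.8, 30.3 and 34.1 TPM in Renca and 80.8, 109 and 91.6 TPM in RAG (log2 difference -1.56 ± 0.14, adjusted p = 0.000106), were higher in RAG, and Cdkn1a, which encodes p21, was higher in Renca (log2 difference 0.56 ± 0.15, adjusted p = 0.0165). RNA of all 3 genes of the Cdkn2a, Cdkn2b and Mtap locus, which many cell lines have lost, was detected in both models. Cdkn2a was at 132, 135 and 138 TPM in Renca and 63.4, 77.5 and 71.4 TPM in RAG (log2 difference 0.92 ± 0.12, adjusted p = 0.000563), Cdkn2b at 12.9, 13.6 and 15.8 TPM in Renca and 32.5, 37.1 and 32.7 TPM in RAG (log2 difference -1.22 ± 0.12, adjusted p = 0.000171), and the neighboring Mtap at 14.2, 16.5 and 18.4 TPM in Renca and 62.9, 78.7 and 57.6 TPM in RAG (log2 difference -1.95 ± 0.16, adjusted p = 5.28e-05).

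Among growth factor receptors and oncogenes, 8 of 24 were higher in Renca and 4 in RAG (34.8% and 12.4% of all genes). These were 7 and 8 after protein-coding rescaling (27.2% and 20.5%). Counts as deposited were near those of all genes. At day 8, 7 of 24 were higher in Renca and 10 in RAG (25.1% and 20.5% of all genes there). Egfr was at 8.33, 9.86 and 9.26 TPM in Renca and 1.79, 2.47 and 1.39 TPM in RAG (log2 difference 1.83 ± 0.17, adjusted p = 9.97e-05), and its ligand Tgfa at 0.29, 0.16 and 0.04 TPM in Renca and 4.43, 5.75 and 5.3 TPM in RAG (log2 difference -2.40 ± 0.18, adjusted p = 3.81e-05), so that receptor and ligand were higher in opposite models. Mst1r, the receptor of macrophage-stimulating protein, was at 10.8, 7.85 and 11.6 TPM in Renca and 1.31, 0.6 and 1.08 TPM in RAG (log2 difference 2.48 ± 0.20, adjusted p = 5.51e-05). Met, the related receptor, did not pass (log2 difference -0.15 ± 0.20, adjusted p = 0.571), and Myc did not pass as deposited (log2 difference -0.53 ± 0.19, adjusted p = 0.0536) but was called higher in RAG after protein-coding rescaling (adjusted p = 0.00256 by limma).

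The RAG line is known as a line selected for resistance to azaguanine and lacking activity of the purine salvage enzyme HPRT. Hprt was at 46.4, 46.6 and 50.6 TPM in Renca and 15.9, 17.7 and 15.4 TPM in RAG (log2 difference 1.497 ± 0.11, adjusted p = 3.95e-05), and RAG was the lowest of the 12 models, with RNA present in every tumor. Host cells in the tumor also express Hprt, and their part was not measured. The phosphoribosyl pyrophosphate synthetases were exchanged, with Prps1 at 10.9, 15.1 and 17.0 TPM in Renca and 42.7, 60.0 and 52.2 TPM in RAG (log2 difference -1.79 ± 0.19, adjusted p = 0.000217) and Prps2 at 25.2, 33.4 and 29.6 TPM in Renca and 6.26, 10.1 and 5.98 TPM in RAG (log2 difference 1.87 ± 0.20, adjusted p = 0.000223). The other salvage enzyme Aprt did not pass (log2 difference -0.12 ± 0.17, adjusted p = 0.603), and adenosine deaminase, Ada, was higher in RAG (log2 difference -1.51 ± 0.15, adjusted p = 0.000181). Over the list, 8 of 19 were higher in Renca and 4 in RAG (34.8% and 12.4% of all genes). Protein-coding rescaling gave 6 and 6 (27.2% and 20.5%).

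Y-linked genes separated neither model. Ddx3y and Eif2s3y were listed at 0 in all 6 tumors, and Uty and Kdm5d stayed at or under 0.05 TPM. Xist, expressed from an inactive X chromosome, was at 50.3, 58.6 and 61.4 TPM in Renca and 41.6, 33.3 and 39 TPM in RAG (log2 difference 0.57 ± 0.14, adjusted p = 0.00995) and did not pass after protein-coding rescaling (adjusted p = 0.102 by limma). The female host contributes Xist to any tumor. Of 16 imprinted genes tested, 12 were higher in Renca and 2 in RAG (34.8% and 12.4% of all genes), with a median of 1.24. At day 8, 5 of 14 were higher in Renca and 2 in RAG (25.1% and 20.5% of all genes there). Igf2r, which clears IGF2, was at 18.9, 24.1 and 21.5 TPM in Renca and 4.03, 2.99 and 4.54 TPM in RAG (log2 difference 2.22 ± 0.16, adjusted p = 3.07e-05), with RAG the lowest of the 12 models, and Grb10 (1.84), Mest (1.76) and H19 (1.25) were higher in Renca. The non-coding Rian (2.09) and Meg3 (1.79) and the protein-coding Dlk1 (1.65) lie in one imprinted cluster and were all higher in Renca, Phlda2 was higher in RAG (log2 difference -1.59 ± 0.32, adjusted p = 0.00466), and Peg3 did not pass (log2 difference -0.16 ± 0.19, adjusted p = 0.515). Igf2 stayed near or under 1 TPM in both models. Of the 14 calls, 6 were repeated at day 8.

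Wnt and Notch pathway genes were higher in Renca for 15 of 25 tested and in RAG for 4 (34.8% and 12.4% of all genes), with a median of 0.95. Higher in Renca were Axin2, Rnf43 and Notum, feedback inhibitors that β-catenin induces. Axin2 was at 13.9, 16.7 and 19.4 TPM in Renca and 2.38, 1.88 and 2.64 TPM in RAG (log2 difference 2.42 ± 0.16, adjusted p = 1.97e-05), Rnf43 at 19.6, 28.5 and 23.5 TPM in Renca and 0.99, 1.69 and 0.9 TPM in RAG (log2 difference 3.51 ± 0.19, adjusted p = 7.89e-06), and Notum at 8.35, 11.2 and 9.95 TPM in Renca and 0.07, 0 and 0 TPM in RAG (log2 difference 3.40 ± 0.16, adjusted p = 4.18e-06). For Rnf43 and Notum, Renca ranked second of 12 behind Hepa 1-6. Lgr5 was also higher in Renca (log2 difference 1.31 ± 0.23, adjusted p = 0.00267). Of the ligands, Wnt6 was at 7.93, 6.39 and 8.21 TPM in Renca and 0.1, 0.2 and 0.34 TPM in RAG (log2 difference 2.81 ± 0.17, adjusted p = 1.33e-05), and Wnt7b was at 3.26, 6.2 and 5.32 TPM in Renca and 23.5, 28.6 and 21.4 TPM in RAG (log2 difference -2.13 ± 0.21, adjusted p = 0.000143). The Notch ligand Dll1 was higher in RAG (log2 difference -1.61 ± 0.16, adjusted p = 0.000159), the Notch target Hes1 in Renca (log2 difference 0.98 ± 0.18, adjusted p = 0.00299), and Notch1 did not pass (log2 difference 0.23 ± 0.11, adjusted p = 0.133).

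Proteases of the matrix and their inhibitors were higher in Renca for 13 of 20 tested and in RAG for 4 (34.8% and 12.4% of all genes). The aggrecanase Adamts5 was at 58.2, 72.4 and 71.0 TPM in Renca and 2.39, 1.73 and 1.81 TPM in RAG (log2 difference 4.52 ± 0.14, adjusted p = 5.84e-07), with Renca the highest of the 12 models, and the stromelysin Mmp10 at 29.4, 30.4 and 26.1 TPM in Renca and 2.69, 1.15 and 1.37 TPM in RAG (log2 difference 3.48 ± 0.20, adjusted p = 1.24e-05). Mmp14 (0.87), Mmp2 (1.12) and the inhibitor Timp1 (0.52) were higher in Renca by smaller amounts, and the collagenase Mmp13 was higher in RAG (log2 difference -1.61 ± 0.27, adjusted p = 0.00203). The gelatinase Mmp9 did not pass (log2 difference -0.03 ± 0.37, adjusted p = 0.957).

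Of Nrf2 targets and glutathione genes, 17 of 28 tested were higher in Renca and 2 in RAG (34.8% and 12.4% of all genes). These were 15 and 5 after protein-coding rescaling (27.2% and 20.5% of all genes). The quinone reductase Nqo1, a classical Nrf2 target, was at 13.6, 12.8 and 12.8 TPM in Renca and 1.72, 1.8 and 1.5 TPM in RAG (log2 difference 2.40 ± 0.12, adjusted p = 5.07e-06), and the efflux pump Abcc2 at 12.9, 21.7 and 15.3 TPM in Renca and 0, 0 and 0.06 TPM in RAG (log2 difference 4.08 ± 0.19, adjusted p = 4.18e-06). Gpx3, a secreted peroxidase made by the kidney tubule, was at 343, 392 and 336 TPM in Renca and 20.6, 22.0 and 21.02 TPM in RAG (log2 difference 4.01 ± 0.12, adjusted p = 4.4e-07), the highest of the 12 models. The glutathione transferase Gsta3 was at 6.2, 4.54 and 4.48 TPM in Renca and 35.4, 63.2 and 53.5 TPM in RAG (log2 difference -3.06 ± 0.22, adjusted p = 3.15e-05), with RAG the highest, although transferases of this family are close in sequence. Gclc was higher in Renca (log2 difference 0.56 ± 0.17, adjusted p = 0.0283), and Gclm (log2 difference -0.54 ± 0.22, adjusted p = 0.0727) and Hmox1 (log2 difference 0.41 ± 0.16, adjusted p = 0.06) did not pass.

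Of 31 oxidative phosphorylation subunits, 5 were higher in Renca and 4 in RAG (34.8% and 12.4% of all genes), or 5 and 11 after protein-coding rescaling, where 27.2% and 20.5% of all genes were called. Their median difference was 0.10 as deposited, under that of all genes. At day 8, 1 of 31 were higher in Renca and 10 in RAG (25.1% and 20.5% of all genes there). Ndufs1 of complex I (log2 difference 0.02 ± 0.15, adjusted p = 0.942), Uqcrc1 of complex III (log2 difference 0.26 ± 0.16, adjusted p = 0.223), Cox4i1 of complex IV (log2 difference -0.25 ± 0.14, adjusted p = 0.167) and Atp5a1 of the ATP synthase (log2 difference -0.08 ± 0.18, adjusted p = 0.754) did not pass. Of 28 lipid genes, 7 were higher in Renca and 8 in RAG (34.8% and 12.4% of all genes). Protein-coding rescaling gave 7 and 13 (27.2% and 20.5%). The fatty acid desaturases Scd1, at 28.1, 35.3 and 29.3 TPM in Renca and 124, 65.8 and 70.9 TPM in RAG (log2 difference -1.41 ± 0.24, adjusted p = 0.00201), and Scd2 (log2 difference -1.16 ± 0.14, adjusted p = 0.000481) were higher in RAG. Fatty acid synthase, Fasn, did not pass (log2 difference 0.11 ± 0.14, adjusted p = 0.542).

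Genes of host tissue around the tumor were present in both models. Of 14 genes of skin, muscle, fat and blood tested, 1 was higher in Renca and 2 in RAG (34.8% and 12.4% of all genes). These were 1 and 5 after protein-coding rescaling (27.2% and 20.5%). The summed level of the list was 298 to 385 TPM in Renca and 239 to 411 TPM in RAG. The muscle enzyme Ckm was at 23.6, 36.4 and 22.8 TPM in Renca and 37.8, 48.1 and 30.0 TPM in RAG and did not pass (log2 difference -0.48 ± 0.23, adjusted p = 0.119), the fat hormone Adipoq at 1.14, 0.89 and 0.64 TPM in Renca and 8, 2.15 and 2.8 TPM in RAG (log2 difference -1.34 ± 0.37, adjusted p = 0.0189), and hemoglobin, Hbb-bs, at 32.8, 26.9 and 21.4 TPM in Renca and 14.2, 28.7 and 10.4 TPM in RAG (log2 difference 0.68 ± 0.33, adjusted p = 0.125). The skin keratin Krt14 stayed at or under 0.52 TPM. RAG tumor 1 held the most Adipoq, and the part of surrounding tissue in the differences above was not tested. Among abundant non-coding RNAs, the nuclear Malat1 was at 1109, 1440.1 and 1423 TPM in Renca and 4116, 2914 and 3785 TPM in RAG (log2 difference -1.44 ± 0.19, adjusted p = 0.000559), with RAG the highest of the 12 models, and Rny1 was higher in Renca (log2 difference 1.77 ± 0.23, adjusted p = 0.000632). Rn7s1 (log2 difference 0.01 ± 0.22, adjusted p = 0.983) and Rn7sk (log2 difference 0.13 ± 0.19, adjusted p = 0.591) did not pass.

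The change of the difference from treatment-naïve tumors to day 8 was called for 256 of 16439 genes (1.56%), 37 of them moved toward Renca and 219 toward RAG. The median change over all genes tested was -0.20. This split turned with the scaling. After protein-coding rescaling, which brought the median to 0.0082, 128 genes moved toward Renca and 88 toward RAG, so no direction is given for the genes as a whole. The count rested on single tumors too, with 6 to 55 toward Renca and 25 to 513 toward RAG when 1 of the 12 was left out. The fewest came without Renca tumor 2 of the treatment-naïve set, the most toward Renca without RAG tumor 2 of that set and the most toward RAG without RAG tumor 5 of day 8. Of 631 genes of the lists shown in the plot of both time points, 628 were tested for the change and 44 were called, 37 toward RAG and 7 toward Renca, or 13 and 22 after rescaling. In the hypoxia list 5 of 36 changes were called, all toward Renca (0.225% of all genes). These were 15 after rescaling and 1 to 7 on leaving out a tumor, with 0 toward RAG in each of these fits. Bnip3 of Renca ranged over 22.6 to 32.1 TPM in naïve tumors and 113 to 121 TPM at day 8, beside 107 to 144 TPM and 99.6 to 116 TPM in RAG (change 2.27 ± 0.21, adjusted p = 0.000736). Slc2a1 of Renca ranged over 11.7 to 13.7 TPM and then 37.5 to 38.5 TPM (change 1.43 ± 0.22, adjusted p = 0.0159), and Ndrg1 over 187 to 226 TPM and then 545 to 742 TPM, above RAG at 339 to 359 TPM (change 1.48 ± 0.26, adjusted p = 0.0234). Adm also moved (1.596 ± 0.29, adjusted p = 0.0269). Bnip3 kept its call in every one of these fits, Slc2a1 lost it without Renca tumor 2 of day 8 (adjusted p = 0.0508 by limma), and Ndrg1 and Adm each lost it in 5 of the 12 fits that left out a tumor. For Car9 (-3.69 ± 0.20, adjusted p = 1.58e-05 at day 8) and Egln3 (-4.79 ± 0.16, adjusted p = 2.92e-06) the change was not called. The day 8 tumors were other mice, later in growth, and the effects of tumor size and of time cannot be told apart. Their mitochondrial share was 8.64% to 13.8% in RAG and 8.82% to 9.90% in Renca, against 4.07% to 6.89% and 7.01% to 7.62% before treatment. Their protein-coding share was 42.7% to 49.4% in RAG and 42.1% to 49.6% in Renca. The part of these shares in the changes was not tested.

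**Figure D5:**
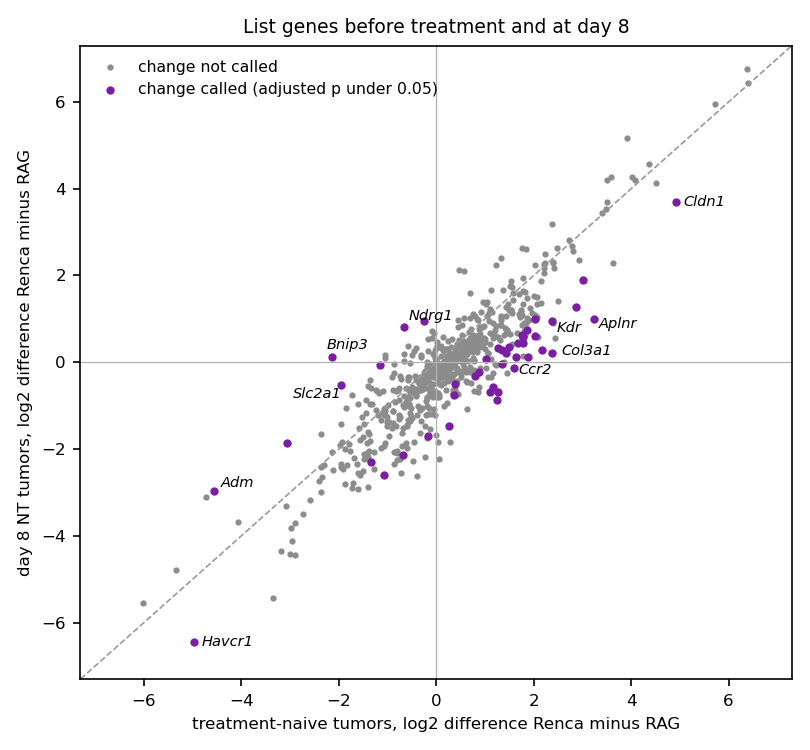
Log2 difference Renca minus RAG in treatment-naïve tumors (horizontal axis) and in NT tumors of day 8 (vertical axis) for 631 genes of the lists, 1 point a gene. Purple points are the 44 genes whose change was called, and the dashed line marks equal differences. With TPM as deposited most purple points lie under the line, which protein-coding rescaling turned to 13 under and 22 above, and Bnip3, Slc2a1, Ndrg1 and Adm lie above it.

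Cxcl9 ranged over 29.9 to 336 TPM in the 3 RAG tumors of day 8 and 0.68 to 3.1 TPM in Renca, with the difference called again (-5.44 ± 0.81, adjusted p = 0.00161). Cd274 ranged over 12.1 to 46.8 TPM in RAG and 10.8 to 14.8 TPM in Renca and was not called (-0.92 ± 0.42, adjusted p = 0.114). H2-Aa of Renca ranged over 262 to 286 TPM in naïve tumors and 90.3 to 116 TPM at day 8, while RAG was at 326 to 703 TPM, and the change toward RAG was called (-1.46 ± 0.31, adjusted p = 0.0444). That call was lost after protein-coding rescaling (adjusted p = 0.0778 by limma) and in 9 of the 12 fits that left out a tumor.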

How the data were processed

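RNA of subcutaneous tumors was sequenced after rRNA depletion. The authors deposited TPM values of 50686 genes for 107 tumors, which the study's methods and the submitters' processing notes trace to trimming (Trimmomatic 0.36), alignment to mm10 (STAR 2.5.2b) and estimation by RSEM 1.2.31. TPM holds no counts, so depth per tumor is unknown and no count test was used. Sequencing ran on more than one instrument, and which tumor ran on which is not given in the sources used here. Tumors were grouped by their labels, as 3 treatment-naïve Renca, 3 treatment-naïve RAG and 3 NT tumors of each at day 8.

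Models were compared by limma 3.58.1 (R 4.3.3), its trend option on, using log2(TPM + 1) from the 6 tumors and genes whose mean reached 1 TPM, with Benjamini-Hochberg adjustment over all genes tested at 0.05. The day 8 tumors were fitted in the same way, and the change of the difference was tested over all 12 tumors. The fit was tested on simulated data for this comparison, with 16667 genes of which 200 were changed. It recovered 68% of changes of 1 and 95% of changes of 2 on the log2 scale, with 3.55% of calls false. The changed genes were all above about 5 TPM and balanced in direction. In the data 47.2% of genes were called and the median difference was 0.26, so these rates do not carry over to the real comparison. Alternatives were another pseudocount (0.1), no minimum or a minimum of 5 TPM, rescaling over protein-coding genes or by the upper quartile, no trend, a fit of all 35 treatment-naïve tumors, the study's own two-group test, a replicate block and leaving out each tumor. For the change, protein-coding rescaling and leaving out each tumor were added after seeing the data. Ranks among the 12 models used the mean log2(TPM + 1) of treatment-naïve tumors. Gene types and positions came from GENCODE M21 (GRCm38), and promoters from RefSeq (GRCm38.p6). Figures were drawn with matplotlib 3.10.9.

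The lists and members were chosen with earlier results of these data known. Genes named were the 12 protein-coding genes with the largest called difference in each direction, the key genes of every list whatever their result, and called members of each list with large differences, of which not all are printed. Some of these genes are not reported here. Ramp1, Ramp3, Calcrl, Calca and Klb were added after values were seen, and further list members, such as those of the day 8 changes and genes mentioned for biological contrast, were also chosen after values were seen.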

Additional observations from a re-analysis of the deposited data

Results flagged for a closer look

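The difference between Renca and RAG changed from treatment-naïve tumors to NT tumors of day 8 for the genes given here, by limma's test of the change itself over 16439 genes at an adjusted p under 0.05. A negative change is toward RAG, the values are on the log2(TPM + 1) scale, and the tumors of each time came from other mice. Of the 24 genes named, 5 (Aplnr, Bnip3, Cd209a, Kdr and Rny3) kept their call after protein-coding rescaling and whichever 1 of the 12 tumors was left out. The other 19 lost it without at least 1 tumor, and 9 (Angptl4, Ccnd1, Ccr2, Cdh5, Col3a1, H2-Aa, Lama4, Meg3 and Mmp14) lost it with rescaling. None of the 24 changed sign in any of these fits, which were chosen after seeing the data. Among vessel and matrix genes, the change was -2.24 for Aplnr, -1.43 for Kdr, -1.42 for Sox18, -1.13 for Cdh5, -2.15 for Col3a1, -0.94 for Lama4 and -1.10 for Mmp14. All 7 were higher in Renca before treatment, and Col3a1 (0.21, adjusted p = 0.673), Lama4 (0.34, adjusted p = 0.0635) and Mmp14 (-0.23, adjusted p = 0.311) were not called at day 8. Among immune genes, the change was -1.76 for Ccr2, -1.59 for Cd209a and -1.46 for H2-Aa. Ccr2 ranged over 27.9 to 32.4 TPM in Renca and 15.9 to 41.6 TPM in RAG at day 8 and was no longer called (adjusted p = 0.772).

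Of 36 hypoxia genes tested, the change was called toward Renca for 5 and toward RAG for 0 (0.225% and 1.33% of all genes). On leaving out a tumor, 1 to 7 were called toward Renca. The change was 2.27 for Bnip3, 1.596 for Adm, 1.48 for Ndrg1 and 1.43 for Slc2a1. Angptl4 changed toward RAG by -1.10. Of these, Ndrg1 turned from higher in RAG to higher in Renca (0.82, adjusted p = 0.00222). The tubular injury marker Havcr1 (-1.46) and the junction gene Cldn1 (-1.23) moved toward RAG, and so did Ccnd1 (-0.97) and Mcm5 (-1.02). The metabolic genes Gsta3 (1.21) and Scd2 (1.10) moved toward Renca. The imprinted RNAs H19 (-2.12) and Meg3 (-1.34) moved toward RAG, and H19 turned from higher in Renca to higher in RAG (-0.87, adjusted p = 0.0385). The small RNA Rny3 had a fitted change of -13.03, which is no measure of size because Rny3 was listed at 0 in all 3 Renca tumors of day 8. The summed endothelial level was 408 to 533 TPM in Renca and 201 to 207 TPM in RAG before treatment. The part of cell composition, tumor size or processing in these changes was not tested.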

How the results depend on the processing

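The calls in treatment-naïve tumors were more often toward Renca in every alternative run. Rescaling gave 3641 genes higher in RAG by the upper quartile and 3408 over protein-coding genes, against 2062 as deposited, with the shift of all genes given above. The study's own two-group test called 3094 genes higher in Renca and 1062 in RAG. Leaving out 1 tumor gave 4303 to 6443 genes higher in Renca, the lowest without Renca tumor 3 and the highest without RAG tumor 2, and 1651 to 1897 higher in RAG. At day 8 it gave 2971 to 3997 higher in Renca and 2583 to 3251 higher in RAG. With a pseudocount of 0.1, no minimum, a minimum of 5 TPM, no trend or a fit of all 35 treatment-naïve tumors, the counts stayed within 1.5 times.

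The change from treatment-naïve tumors to day 8 depended on the scaling. With protein-coding rescaling, chosen after seeing the data, 128 genes moved toward Renca and 88 toward RAG, against 37 and 219 as deposited. Leaving out 1 tumor gave 6 to 55 and 25 to 513.

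The replicate numbers of the labels do not pair the tumors, since deviations of same-numbered Renca and RAG tumors correlated at -0.007, 0.013 and 0.023 across genes. With a replicate block, 5939 genes were higher in Renca and 2088 in RAG before treatment. At day 8, where the models share fewer numbers, the block gave 2820 and 1608, against 4026 and 3283 without it.

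Of named genes, those near the threshold lost their call when 1 tumor was left out, given here with limma's adjusted p. Without RAG tumor 1, calls were lost for Cd22 (0.0581), Cd4 (0.12), Csf1r (0.0814), Gclc (0.0858), Ly6c1 (0.0728), Ncr1 (0.0886), Pax5 (0.0771) and Pdgfrb (0.0996). Without RAG tumor 2, calls were lost for Ly6c1 (0.0513), Ncr1 (0.124), Pdgfrb (0.0613) and Pgf (0.0807). Without RAG tumor 3, calls were lost for Cd4 (0.104), Cdkn1a (0.053), Gclc (0.0738), Ncr1 (0.074), Pax5 (0.0521) and Pgf (0.0693). Without Renca tumor 1, calls were lost for Cd22 (0.0657), Cd4 (0.0828), Ly6c1 (0.114), Ncr1 (0.109), Ndrg1 (0.095), Pax5 (0.061), Pdgfrb (0.0824) and Pgf (0.0701). Without Renca tumor 2, calls were lost for Adipoq (0.0506), Cd4 (0.0795), Cdkn1a (0.0524), Csf1r (0.0787), Gclc (0.0875), Ncr1 (0.0747), Ndrg1 (0.0515), Pax5 (0.0555), Pdgfrb (0.109) and Pgf (0.0503). Without Renca tumor 3, calls were lost for Adipoq (0.0524), Cd22 (0.0572), Cd4 (0.101), Cdkn1a (0.0656), Csf1r (0.0955), Gclc (0.0993), Ly6c1 (0.0727), Ncr1 (0.0554), Ndrg1 (0.0804), Pax5 (0.0877) and Xist (0.0508).

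With the fit of all 35 treatment-naïve tumors, calls were lost for Cd274 (0.0556), Cd4 (0.321), Cd74 (0.215), Csf1r (0.111), H2-Aa (0.188), H2-Ab1 (0.215), Ighm (0.0672), Ncr1 (0.114), Ndrg1 (0.0838), Pdgfrb (0.0652), Pgf (0.0736), Tap1 (0.224) and Xist (0.259). With no minimum, calls were lost for Adipoq (0.0518), Cd22 (0.0526), Cd4 (0.0823), Gclc (0.0584), Ly6c1 (0.0778), Ncr1 (0.0662), Ndrg1 (0.0627), Pax5 (0.0586) and Pdgfrb (0.0619). With protein-coding rescaling, calls were lost for Csf1r (0.118), Pax5 (0.0858), Pdgfrb (0.185) and Xist (0.102). With upper-quartile rescaling, calls were lost for Cdkn1a (0.0527), Csf1r (0.168), Pax5 (0.118), Pdgfrb (0.234), Timp1 (0.0885) and Xist (0.115). With the replicate block, calls were lost for Cd4 (0.0596), Ly6c1 (0.0705), Ncr1 (0.0641) and Pdgfrb (0.0549). With a minimum of 5 TPM, calls were lost for Pax5 (0.0623). The study's two-group test kept the call of 148 named genes and ended it for 39, at adjusted p of 0.0501 to 0.176. These were Acta2, Adipoq, Cd163, Cd22, Cd274, Cd68, Cdh16, Cdkn1a, Col4a1, Col4a2, Csf1r, Dcn, Epcam, Fgfr1, Gclc, H19, Ifit1, Ifit3, Kcnj8, Ly6c1, Mest, Mmp13, Mmp2, Ncr1, Ndrg1, Pax5, Pdgfra, Pdgfrb, Pgf, Phlda2, Rny1, Rsad2, S100a4, S100a9, Scd1, Spint2, Tap1, Tek and Trp53.

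No named gene that was called changed sign. Genes that were not called and lay near 0 did. Their log2 differences turned negative with protein-coding rescaling for B2m (-0.19), Fasn (-0.10), Isg15 (-0.0326), Ndufs1 (-0.19), Rn7s1 (-0.21) and Rn7sk (-0.0797). They turned negative with upper-quartile rescaling for Angpt2 (-0.0179), B2m (-0.23), Fasn (-0.14), Flt1 (-0.0298), Isg15 (-0.0696), Ndufs1 (-0.23), Notch1 (-0.0092), Rn7s1 (-0.24), Rn7sk (-0.12), Rny3 (-0.0129) and Vim (-0.0202). Leaving out 1 tumor turned the sign of Aprt (-0.27 to 0.0613), Atp5a1 (-0.21 to 0.10), B2m (-0.18 to 0.13), Ccl2 (-0.28 to 0.0763), Cd8a (-0.30 to 0.0619), H2-D1 (-0.10 to 0.0475), H2-K1 (-0.0906 to 0.0805), Isg15 (-0.0168 to 0.28), Met (-0.29 to 0.0311), Mmp9 (-0.40 to 0.23), Ndufs1 (-0.0925 to 0.12), Pax2 (-0.11 to 0.0896), Rn7s1 (-0.10 to 0.079) and Vhl (-0.12 to 0.0913). For these genes no direction is given.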

Other observations

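Differences between the models were uneven along the genome. Over 12672 protein-coding genes the median difference was 0.26 in treatment-naïve tumors and 0.02 at day 8. Chromosomes 16 (0.55), 2 (0.48), 3 (0.48) and 8 (0.48) had the highest medians and chromosomes 13 (-0.19), 14 (-0.16) and 5 (-0.04) the lowest. On chromosome 16, 243 of 403 genes were higher in Renca and 33 in RAG, against 92 and 148 of 497 on chromosome 13. These chromosomes were picked as the extremes. Over all 16667 genes tested, of any type, 34.8% were higher in Renca and 12.4% in RAG as deposited. At day 8 the medians of the same chromosomes were 0.33, 0.28, 0.22 and 0.24 for the first 4 and -0.40, -0.48 and -0.30 for the last 3. Both sets of tumors are of the same 2 lines.

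A set of 17 genes was listed at 0 in all 3 treatment-naïve RAG tumors with at least 3 TPM in every Renca tumor, and 6 of them were protein-coding. These were the homeobox gene Nkx2-3, the RNA export gene Nxf3, the closely related Rhox2d, Rhox2g and Rhox2h, and Xlr3a, 5 of which lie on the X chromosome. A set of 11 genes was listed at 0 in all Renca tumors with at least 3 TPM in every RAG tumor, with the protein-coding Btg4 and the mast cell protease Mcpt1. TPM estimates of near-identical genes such as the Rhox2 family can be divided unevenly among copies.

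Rny3, a small non-coding RNA that rRNA depletion retains, was at 16475 to 19505 TPM in Renca and 13251 to 17874 TPM in RAG before treatment. At day 8 it was listed at 0 in all 3 Renca tumors and at 5997 to 8398 TPM in RAG.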
